A study of Mus musculus with 272 samples.

Results

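The RNA of mouse oocytes arrested at metaphase of the second meiotic division (MII) was followed down 3 sucrose gradients. The gradients, lettered A, B and C in the labels, were each collected as 10 equal fractions, which gives 30 libraries out of the 272 in the series. All 30 were taken because their titles name them as MII fractions, and no measured value was used to choose them. Each gradient was loaded with a lysate of approximately 100 oocytes made and spun in the presence of cycloheximide, a drug that holds ribosomes on their transcripts. In such pools fewer oocytes that hold a transcript and less of it per oocyte cannot be told apart. A HEK293 sample, a human embryonic kidney line run in parallel, served the submitters as a check of the fractionation. Beside the gradients stand 4 transcriptome libraries from pools of 20 MII oocytes of the same batch. The 2 neighbouring stages, the germinal vesicle (GV) oocyte before maturation and the zygote after fertilization, have 3 gradients each and are used here only for comparison. The labels give no strain or age and no genetic or drug treatment beyond the cycloheximide shared by every gradient. They record poly(A) RNA amplified with a Smart-seq kit, so a transcript with a short poly(A) tail can be captured less well.

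A fully grown mouse oocyte stops transcribing before maturation and then works from stored transcripts. Many stored messenger RNAs are kept with short poly(A) tails and few ribosomes until maturation, when cytoplasmic polyadenylation elements (CPEs) in their 3′ untranslated regions recruit the machinery that lengthens the tail and brings ribosomes. In a sucrose gradient a transcript free of ribosomes stays near the top and one that carries many ribosomes sediments towards the bottom. In the labels fractions carry numbers only. By convention fractions 1 to 5 were taken as the light side and fractions 6 to 10 as the heavy side, where ribosome-bound transcripts lie.

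Values are CPM, counts per 1 M reads, that is the reads of a gene scaled by the reads of its library. Because the total of every library is set to the same sum, the values say how a fraction is composed and not how much RNA it held. A mean CPM was taken over the 5 fractions of either side, separately by gradient, and the heavy-minus-light difference is that of log2(mean CPM + 1) within a gradient, a scale that understates the differences of low genes. Fraction 1 held 8.63 to 11.5 M reads and fractions 2 to 10 held 17.6 to 27.9 M. Replicate fractions correlated across genes (Pearson's r of log2 values) at 0.874 to 0.967 for fractions 2 to 6, 0.748 to 0.810 for fraction 1 and 0.717 to 0.862 for fractions 7 to 10. Fraction 7 of gradient C stood apart, with 5467 genes at 1 CPM or more where the highest count among the 30 libraries was 10747, and the median gene had 0.345% of its summed CPM there against 7.32% and 8.53% in A and B. With fraction 7 left out 1591 genes were called heavy and 992 light, beside 1540 and 920 with it. Fraction 10 of gradient A also differed from B and C for several transcripts named here. The 16 oocyte markers summed to 17020 to 86672 CPM in the fractions. Of 18 cumulus and granulosa cell markers, 8 were in the table and summed to 0 to 121.7 CPM, and their part in the results was not tested. Of 8 blood and immune cell markers 3 were in the table and summed to 0 to 21.2 CPM. Of these Cd68, a macrophage marker, reached 21.2 CPM and was at 0 in 15 of the 30 libraries, while the haemoglobin transcripts Hba-a1 and Hba-a2 were at 0 in 29 and 30. Nothing in the labels says that the 3 gradients came from separate animals, so p-values measure the spread between these gradients, which may be technical.

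Some of the transcripts on which the results turn carry a CPE close to the end of the transcript. These windows of 30 bases are shown because they hold matches to the CPE, whose action in these transcripts was not tested here. They come from the 3′ untranslated regions in the GENCODE M21 annotation of GRCm38, a different build from that of the authors' alignment, and were read 5′ to 3′ on the strand of the transcript. Capitals mark the CPE, searched as TTTTAT or TTTTAAT on the transcript strand alone, and where the window holds one the poly(A) signal, searched as AATAAA or ATTAAA.
Plat (chr8:22782754-22782783, plus strand): taTTTTAATctattttagtttttactttgt
Btg4 (chr9:51119807-51119836, plus strand): ctTTTTATgtctttttaaaagtttgattta
Cnot7 (chr8:40493036-40493065, minus strand): ttaaggtacaTTTTATatcAATAAAaatac
Orc6 (chr8:85308015-85308044, plus strand): aaTTTTATttcactaaatgttatatagcct
Bub1b (chr2:118641562-118641591, plus strand): gtaTTTTATAATAAAatagtttttgttaca
Cks2 (chr13:51650608-51650637, plus strand): tgTTTTATtttacctgttttgttaAATAAA
Obox1 (chr7:15556809-15556838, plus strand): ttTTTTATtgttagagtatatgttcattaa
Nexn (chr3:152237018-152237047, minus strand): ggTTTTATatttaattttctgggaaacgtg
In Bub1b the poly(A) signal follows the CPE directly. In Cks2 the window ends with the poly(A) signal. The first base of the window lies 91 bases from the annotated 3′ end in Plat, 69 in Btg4, 53 in Cks2, 57 in Orc6 and 30 in Cnot7. Of the 9920 tested genes with a 3′ untranslated region of 100 bases or more, 1966 (19.8%) held such a CPE in the last 100 bases.

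Of 11314 genes tested with limma (paired by gradient, Benjamini-Hochberg adjusted p under 0.05 and a difference of at least 1), 1540 (13.6%) were called on the heavy side and 920 (8.13%) on the light side. Of the heavy calls 625 had their highest mean CPM in fraction 10, 389 in fraction 9 and 331 in fraction 8. Of the light calls 443 were highest in fraction 1, 269 in fraction 2 and 136 in fraction 3. The heavy calls included 15 of 38 genes of M phase and the spindle checkpoint and 11 of 24 of deadenylation and decapping, and the light calls 30 of 79 cytosolic ribosomal protein genes and 31 of 79 of oxidative phosphorylation. The light calls leaned on fraction 1. With it left out 1701 genes (15.1% of 11241) were called heavy and 822 (7.31%) light, 1430 of the 1540 heavy calls were made again, and 506 of the 920 light calls. Counts also depended on the fit, with 368 heavy and 297 light calls when all 8 stages shared 1 estimate of the spread. With edgeR's quasi-likelihood test on the recovered reads they were 1309 and 562. In all 3 fits that left out 1 gradient, 922 of the 1540 heavy calls and 389 of the 920 light calls were made.

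**Figure D1:**
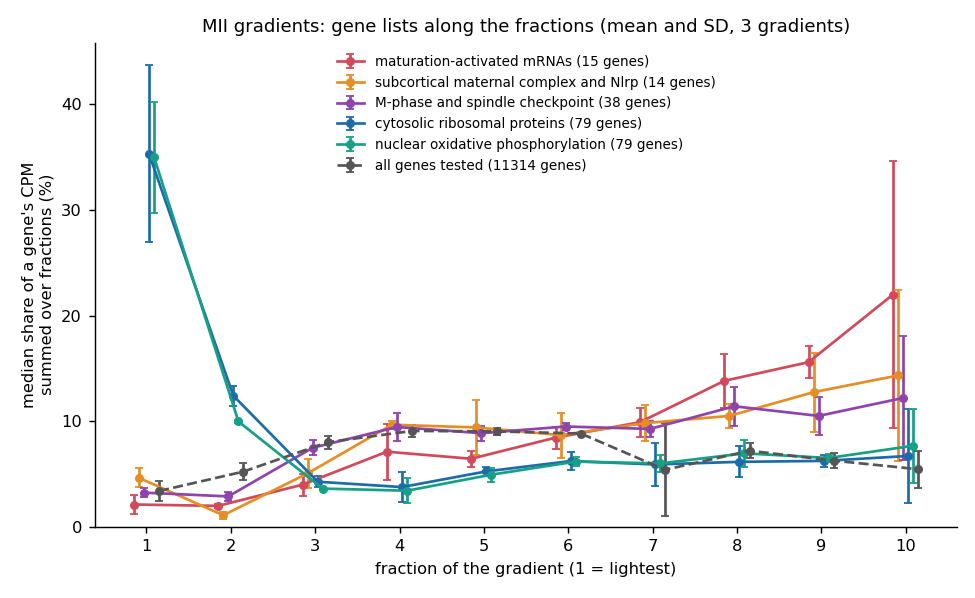
Share of a gene's CPM, summed over the 10 fractions of a gradient, that fell in each fraction (vertical axis, percent, median over the genes of a list), plotted against the fraction number. Points and bars are the mean and SD of 3 MII gradients. The mean of the maturation-activated list climbs to 22.0% in fraction 10, with 7.91%, 32.3% and 25.7% in A, B and C. Gradient A drops there from 16.7% in fraction 9. Ribosomal protein and oxidative phosphorylation transcripts start at 35.3% and 35% in fraction 1.

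Transcripts known for translation switched on during maturation lay on the heavy side almost throughout. Of 15 such genes 13 were called heavy and 0 light, with a median difference of 1.76 beside -0.07 over all genes tested. The list was drawn from general knowledge with earlier results of these data known, so its direction is not independent evidence. Plat, the tissue plasminogen activator, had 227, 259 and 357 CPM on the light side of gradients A, B and C, and 723, 1892 and 1902 CPM on the heavy side. The lowest heavy value was above the highest light value. Its difference was 2.32 (SE 0.23, limma adjusted p 3.67e-05). Ccnb1, the cyclin B1 of M-phase promoting factor, had 378, 337 and 295 CPM on the light side and 773, 1569 and 1204 CPM on the heavy side, a difference of 1.76 (SE 0.23, limma adjusted p 0.000232). Mos, the kinase upstream of the MII arrest, had 721, 904 and 1265 CPM on the light and 1907, 3223 and 2069 CPM on the heavy side. Btg4, which links the cap-binding complex to deadenylation, held the closest gradients, with 735, 706 and 553 CPM light and 1857, 1918 and 1720 CPM heavy. In each of the 4 genes the sides did not overlap, which is close to what their calls already require.

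The profile of these transcripts climbed along the gradient rather than stepping at its middle. Mean CPM of Plat was 222 in fraction 1, 417 in fraction 4, 996 in fraction 8, 1938 in fraction 9 and 3679 in fraction 10. Ccnb1 went from 114 CPM in fraction 1 to 569 in fraction 4, 1190 in fraction 8 and 2361 in fraction 10. The last step rested on gradients B and C. In fraction 10 Plat had 340, 6450 and 4247 CPM and Ccnb1 247, 4150 and 2686 CPM in A, B and C, so gradient A dropped where the others peaked. Btg4 did not share that drop, with 2752, 3886 and 2921 CPM in fraction 10. With fraction 10 left out 13 of the 15 were again called heavy and the median was 1.40, and with fraction 1 left out 12 were, with a median of 1.53.

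**Figure D2:**
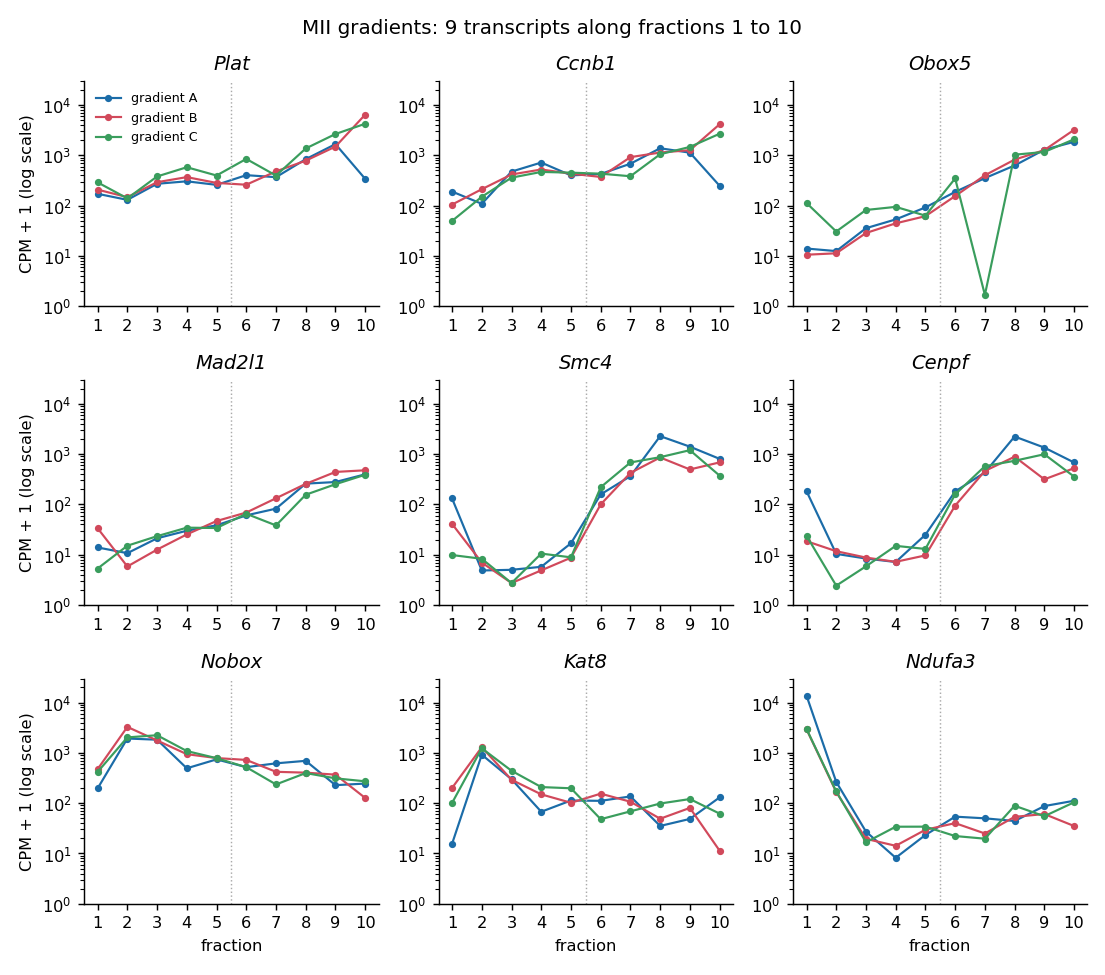
CPM + 1 (log scale) of 9 transcripts against fraction number in the 3 MII gradients, 1 line per gradient, with a dotted line between the light and the heavy side. Mad2l1, Obox5, Plat and Ccnb1 climb to fraction 10 (Plat and Ccnb1 not in gradient A, Obox5 with a gap in fraction 7 of gradient C), Smc4 and Cenpf crest at fractions 8 and 9, Nobox and Kat8 are highest at fractions 2 and 3, and Ndufa3 at fraction 1.

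The other members of the list spanned a range of roles. Cnot7, a catalytic deadenylase, had 7.49, 7.57 and 28 CPM light and 89.7, 115 and 94.5 CPM heavy (difference 2.97, SE 0.41, limma adjusted p 0.000301). Orc6, a subunit of the origin recognition complex that DNA replication needs after fertilization, had 25.2, 22.6 and 17.4 CPM light and 117, 103 and 111 CPM heavy (difference 2.31). Its 3 gradients lay close together on both sides. Bub1b (1.61), Tpx2 (1.91), Dazl (1.25), Cnot6l (2.19), Il7 (2.28), Dcp1a (1.14) and Tex19.1 (1.90) were called as well. In gradients A, B and C the difference was 0.52, 2.36 and 2.84 for Tpx2 and 0.16, 2.83 and 2.70 for Tex19.1. The call of Dcp1a was lost without replicate C (0.903), and that of Tex19.1 without replicate B (1.43, limma adjusted p 0.139). Dcp2, the decapping enzyme, was not called, with 131, 130 and 108 CPM light and 156, 65.1 and 73.8 CPM heavy. Cdc6, a replication licensing factor, was not called either, with 48.3, 55.0 and 48.7 CPM light and 26.1, 44.4 and 55.5 CPM heavy. The sides of these 2 genes overlapped.

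The wider machinery of M phase lay in the same direction, and fewer of its members were called. Of 38 genes of M phase and the spindle checkpoint 15 were called heavy and 0 light, with a median of 0.70. Mad2l1, the checkpoint protein that holds back anaphase, had 21.9, 23.8 and 21.5 CPM on the light side and 214, 274 and 179 CPM on the heavy side (difference 3.24, SE 0.26, limma adjusted p 9.38e-06). Its CPM climbed from 16.6 in fraction 1 to 83.4 in fraction 7 and 420 in fraction 10, with 395, 476 and 388 CPM in fraction 10 of the 3 gradients. Pttg1, the securin that keeps sister chromatids joined, had 950, 1296 and 1011 CPM light and 7716, 8672 and 4665 CPM heavy, a difference of 2.66. Cks2, a small subunit of cyclin-dependent kinase complexes, had a difference of 2.64, and Fbxo43, the inhibitor that keeps the anaphase-promoting complex off in MII, 2.58. Kif11, a motor of spindle bipolarity, had 4.08, 2.91 and 5.91 CPM light and 53.7, 25.7 and 57.7 CPM heavy (difference 3.10). Among 24 kinesins 13 were called heavy and 2 light, with a median of 1.37, beside 13.6% and 8.13% of all genes tested. Kif20b (5.19) and Kif14 (3.11), both of cytokinesis, led that group. Without fraction 10 the counts were 13 of 38 and 10 of 24.

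Part of the messenger RNAs of deadenylation and decapping lay on the heavy side as well, but not that of Dcp2, the decapping enzyme. Of 24 genes of deadenylation and decapping 11 were called heavy and 0 light, although the median of the list was 0.37. Beside Cnot7, Cnot6l, Btg4 and Dcp1a, shared with the list above, they included the scaffold Cnot1 (difference 2.14, SE 0.35), the deadenylase Cnot8 (2.03) and the exonuclease Xrn1 (2.02). Cnot8 had 10.9, 16.7 and 18.7 CPM light and 25.5, 109 and 95.1 CPM heavy, the lowest heavy value again in gradient A. The call of Xrn1 was lost without replicate A (1.69, limma adjusted p 0.0940). Of 32 genes of RNA storage and translational control 7 were called heavy and 3 light, beside 13.6% and 8.13% of all genes tested. The poly(A) polymerase Papolg (2.56) had 1.67, 1.31 and 3.79 CPM light and 29.4, 11.1 and 15.6 CPM heavy. Cpeb4, a CPE-binding protein (2.13), Ddx6, a helicase of RNA granules (1.92), and the poly(A) polymerase Papola (1.67) each lost their call when 1 gradient was left out. The value was 1.75 for Cpeb4 without replicate A, 2.17 without replicate A and 1.24 without replicate C for Ddx6, and 0.871 for Papola without replicate C.

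Oocyte-specific factors did not move as a block. Of 12 oocyte growth factors and regulators 5 were called heavy and 1 light (median 0.98), beside 13.6% and 8.13% of all genes tested. Gdf9, a growth factor secreted by the oocyte, had 4870, 5582 and 5660 CPM light and 10173, 15732 and 11111 CPM heavy, a difference of 1.18, and of 0.95 with fraction 1 left out, below the size required for a call. Tcl1, a co-activator of the Akt kinase, had 1485, 2198 and 2344 CPM light and 9153, 16786 and 8269 CPM heavy (difference 2.46, SE 0.21, limma adjusted p 1.09e-05). Oosp3, an oocyte-secreted protein, had 91.5, 97.3 and 135 CPM light and 1473, 624 and 599 CPM heavy (2.94). Kit, the receptor for stem cell factor, had a difference of 1.73. Nobox, a homeobox transcription factor of oocyte growth, ran against them, with 1036, 1449 and 1311 CPM light and 460, 408 and 346 CPM heavy (difference -1.64, SE 0.20, limma adjusted p 0.000142). It peaked at 2413 CPM in fraction 2 and reached 214 CPM in fraction 10, and its difference was -1.88 with fraction 1 left out.

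Transcripts of the egg coat, fertilization and egg activation were spread over the gradient, with 2 of 19 called heavy, 2 light and a median of -0.26. Over all genes tested 13.6% were called heavy and 8.13% light. The heavy ones of the list were Trpm7 (1.98), a divalent cation channel, and Astl (1.04), the ovastacin that cleaves the egg coat after fertilization. The light ones were Tpst1 (-2.38), a tyrosine sulfotransferase, and Izumo1r (-1), the egg receptor for sperm. Astl, with 0.927 without replicate B and 0.974 without replicate C, and Izumo1r, with -0.888 without replicate B, sat at the edge of the size required. Trpm7 was no longer called without replicate A (1.82, limma adjusted p 0.0728).

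Some Nlrp and Obox transcripts were called heavy, and other members of the Nlrp list were not called. For the lists named here the shares over all genes tested were 13.6% heavy and 8.13% light. Of 14 genes of the subcortical maternal complex and the Nlrp family, proteins stored under the egg membrane, 6 were called heavy and 0 light (median 0.76). Nlrp14 had 330, 200 and 212 CPM light and 1265, 1406 and 1294 CPM heavy (difference 2.45, SE 0.21, limma adjusted p 1.27e-05). Nlrp5, the MATER protein, had 72.0, 61.5 and 172 CPM light and 217, 445 and 543 CPM heavy (2.02). Of 26 maternal factors that act in the embryo 9 were called heavy and 1 light (median 0.55), and the largest differences were those of the oocyte-specific homeobox genes. Obox5 had 40.5, 30.4 and 75.7 CPM light and 863, 1172 and 925 CPM heavy (difference 4.40, SE 0.28, limma adjusted p 2e-06). Obox1 had 43.7, 39.7 and 68.2 CPM light and 713, 943 and 935 CPM heavy (4.10). Obox2 (3.69) and Obox7 (2.88) had the same direction. Obox5 put 45.4% and Obox1 44.3% of their summed CPM into fraction 10, the largest shares of any gene that was highest there in all 3 gradients. Obox and Nlrp genes have near-identical copies, and reads may be shared among them.

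**Figure D3:**
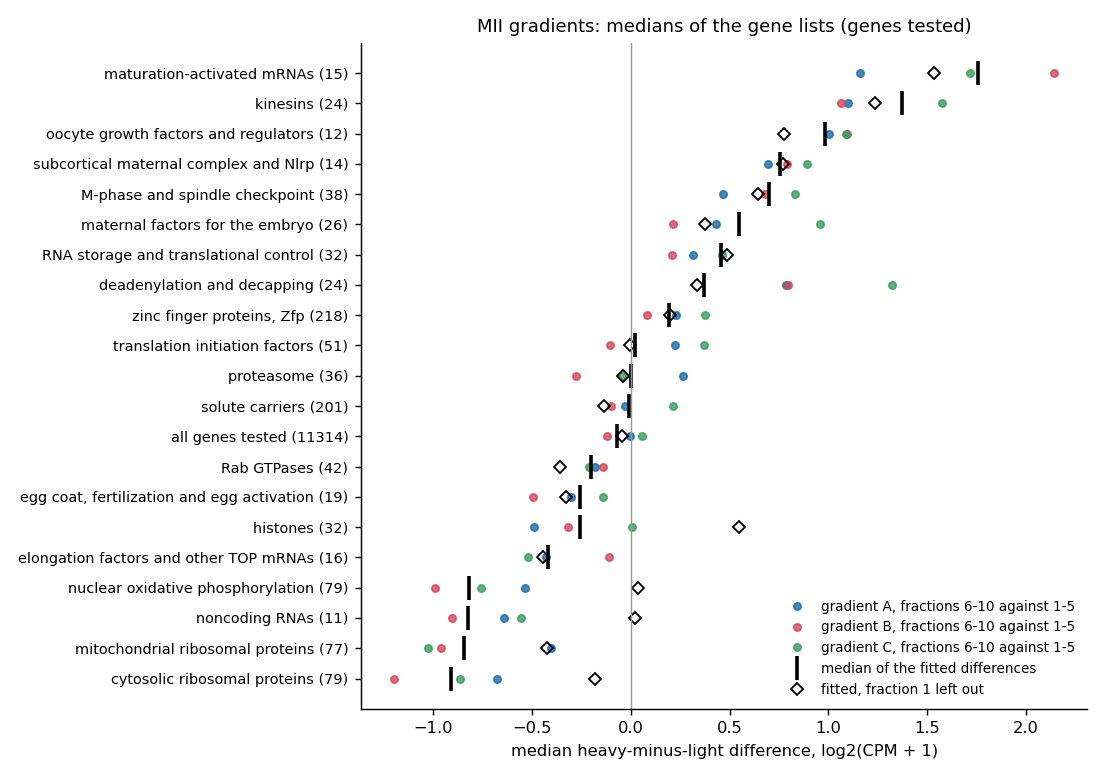
Median heavy-minus-light difference on the log2(CPM + 1) scale (horizontal axis) for 20 gene lists and for all genes tested, with the number of genes tested in parentheses. Coloured points are the 3 MII gradients, the bar is the median of the fitted differences and the open diamond the same with fraction 1 left out: cytosolic ribosomal proteins move from -0.91 to -0.18 and oxidative phosphorylation from -0.82 to 0.04, while maturation-activated mRNAs go from 1.76 to 1.53.

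The 10 largest differences on the heavy side belonged to Nexn, Eif5b, Ccar1, Smc4, Map1b, Atrx, Cenpe, Kif20b, Cenpf and Gcc2, at 6.17 to 5.02. Nexn, an actin-binding protein, had 9.23, 2.38 and 3.66 CPM light and 629, 276 and 341 CPM heavy (SE 0.30, limma adjusted p 4.7e-07). Smc4, a core subunit of condensin, had 31.7, 11.9 and 7.06 CPM light and 1001, 511 and 667 CPM heavy (difference 5.54, SE 0.30). Cenpf, a kinetochore protein, had 45.9, 10.2 and 11 CPM light and 974, 455 and 563 CPM heavy (5.09). Eif5b, the factor that joins the ribosomal subunits, had 3.45, 2.26 and 1.19 CPM light and 229, 113 and 202 CPM heavy (5.78). In each of these genes the sides lay far apart in every gradient. They did not climb to the last fraction. Smc4 went from 10.5 CPM in fraction 5 to 158 in fraction 6, 1333 in fraction 8 and 620 in fraction 10. Cenpf had 14.9 CPM in fraction 5, 1285 in fraction 8 and 520 in fraction 10, and Atrx, a chromatin remodeller, 16.9, 1146 and 327 CPM.

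Most of these transcripts have long coding regions. The annotated coding length was 8991 nucleotides for Cenpf, 7428 for Atrx, 7413 for Cenpe, a kinetochore motor, 7392 for Map1b, a microtubule-associated protein, 3858 for Smc4 and 1821 for Nexn, against a median of 1392 over the 10524 tested genes with an annotation (93.0%). Across genes, which are not independent replicates, Spearman's rho of coding length with the heavy-minus-light difference was 0.214, and 0.133 with fraction 1 left out. Of 526 genes with a coding region over 4800 nucleotides 37.3% were called heavy and 2.28% light. Of 3815 genes of 1201 to 2400 nucleotides these shares were 13% and 6.29%. The short end depended on fraction 1. Of 219 genes of up to 300 nucleotides 25.1% were called light and 10.5% heavy, and with fraction 1 left out 4.57% and 19.6%. The share of heavy calls at the long end was 41.3% with fraction 1 left out.

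**Figure D4:**
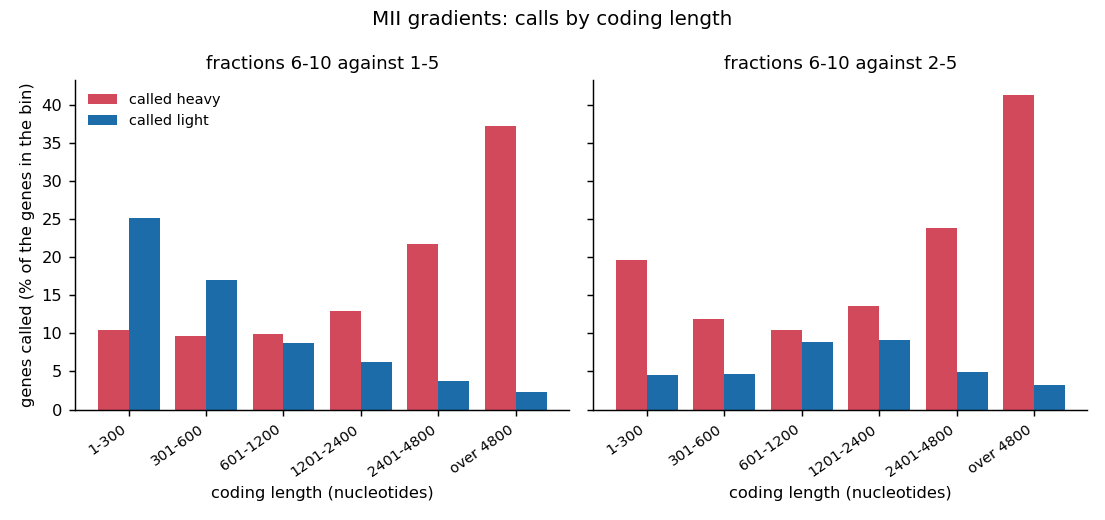
Percent of the tested genes called heavy (red) or light (blue) in MII gradients by coding length in nucleotides, with all fractions (left) and with fraction 1 left out (right). The heavy share is largest over 4800 nucleotides in both panels (37.3% and 41.3%), while the light share of the shortest genes goes from 25.1% to 4.57%.

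Length did not order the far end of the gradient. Among 6854 genes with a mean of at least 10 CPM, 1165 had the same highest fraction in all 3 gradients, 805 of them in fraction 1 or 2 and 139 in fractions 8 to 10. The median coding length was 483 nucleotides for the 427 annotated genes highest in fraction 1, 980 for 304 in fraction 2, 1569 for 128 in fraction 3 and 2409 for 23 in fraction 8. For the 84 in fraction 10 it was 934.5. The genes highest in fraction 8 had Ccdc88a, a regulator of G proteins and actin, and Eif5b at their head, with 58.5% and 40.2% of their summed CPM there. In the middle, Pkd1, which encodes polycystin and has a mean of 136 CPM in fraction 6 and 1.01 CPM in fraction 10, put 38.9% into fraction 6. These positions describe where the CPM of a transcript was highest and carry no test.

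Several of the transcripts with the largest light-side differences had most of their CPM in fraction 1. Bc1, a small noncoding RNA transcribed by RNA polymerase III, had 63.3, 20.5 and 23.4 CPM light and 0.245, 0.0788 and 0.296 CPM heavy (difference -4.75, SE 0.54, limma adjusted p 9.85e-05), and 98.4% of its summed CPM was in fraction 1. Rn7s1 and Rn7s2, near-identical copies of the RNA of the signal recognition particle, had differences of -3.38 and -3.37. That direction held only with fraction 1. Rn7s1 had 1124 CPM in fraction 1, 2.85 in fraction 3 and 47.7 in fraction 10, and with fraction 1 left out the differences were 1.43 and 1.5, on the heavy side. Rn7sk, which binds the elongation factor P-TEFb, went from -2.10 to 1.28 in the same way. Terf2ip, a telomere protein, had 208 CPM in fraction 1 and at most 3 CPM elsewhere, and went from -3.81 to 0.16. Means in the MII transcriptomes were 0.18 CPM for Bc1, 0.036 for Rn7s1 and 4.13 for Terf2ip. Of 11 noncoding RNAs 4 were called light and 1, Gas5 (1.60), heavy, and with fraction 1 left out 0 and 2. Over all genes tested 8.13% were light and 13.6% heavy, and 7.31% and 15.1% with fraction 1 left out. The call of Gas5 was lost without replicate A (1.5, limma adjusted p 0.118) and without replicate B (1.65, limma adjusted p 0.153). The host gene Snhg18 had a difference of -1.72, and -0.06 with fraction 1 left out. The 18S ribosomal RNA, which poly(A) capture should largely miss, had 4207, 3297 and 3003 CPM light and 11836, 10932 and 6875 CPM heavy (Rn18s, difference 1.47).

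Respiratory chain transcripts were found on the light side. Of 79 nuclear genes of oxidative phosphorylation 31 were called light and 1, Ndufa4, heavy, with a median of -0.82. Ndufa3, a small subunit of complex I with a coding region of 252 nucleotides, had 2810, 634 and 648 CPM on the light side and 68.5, 41.9 and 57.0 CPM on the heavy side (difference -4.24, SE 0.31, limma adjusted p 3.61e-06). Its CPM was 6556 in fraction 1, 200 in fraction 2, 20.1 in fraction 3 and 82.6 in fraction 10. In the 4 MII transcriptomes its mean was 9.50 CPM, so the value in fraction 1 describes the composition of that fraction and not the level in the oocyte. Uqcrq of complex III had a difference of -3.16, Atp5e of the ATP synthase -2.92, and Uqcc2, an assembly factor of complex III, -3.35. With fraction 1 left out the differences were -0.26 for Ndufa3, -0.06 for Uqcrq, 0.41 for Atp5e and -0.63 for Uqcc2, none of them called. The list of 79 then had 4 light and 11 heavy calls with a median of 0.04. Over all genes tested 8.13% were called light and 13.6% heavy, and 7.31% and 15.1% with fraction 1 left out. Elob, elongin B, had the same shape, with 7269 CPM in fraction 1, 53.0 in fraction 4 and 198 in fraction 10, and went from -3.37 to -0.32. Its mean in the MII transcriptomes was 9.93 CPM.

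Ribosomal protein transcripts, whose translation is controlled through a pyrimidine tract at their 5′ end, were also concentrated in fractions 1 and 2. Of 79 cytosolic ribosomal protein genes 30 were called light and 1, Rps27l, heavy (median -0.91). Rps12 had 428, 330 and 331 CPM light and 47.9, 25.3 and 35.1 CPM heavy (difference -3.33, SE 0.24, limma adjusted p 3.73e-06), and Rpl32 613, 605 and 689 CPM light and 136, 63.1 and 111 CPM heavy (-2.68). Rps15 (-3.06), Rpl12 (-2.71) and Rpl36 (-2.69) were called as well. With fraction 1 left out 3 of 77 were called light and 7 heavy, with a median of -0.18. Over all genes tested these shares were then 7.31% light and 15.1% heavy. Rpl32 and Rpl12 were again called, at -1.36 and -1.52, and Rps12, Rps15 and Rpl36 were not, at -1, -0.64 and -0.03. Of 77 mitochondrial ribosomal protein genes 20 were called light and 1, Mrpl3, heavy, and 8 and 1 with fraction 1 left out. Mrpl54 (-3.12) and Mrpl23 (-3.03) led them and were not called without fraction 1 (-0.99 and -0.55). Ribosomal protein genes have many pseudogene copies that could share their reads. Of 32 histone genes 5 were called heavy and 2 light, beside 13.6% and 8.13% of all genes tested. Cenpa, the centromeric histone, was first among the heavy ones at 2.33. H4c3, a light one at -2.21, was at 0.40 with fraction 1 left out.

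A further set of light transcripts did not depend on fraction 1. Kat8, a histone acetyltransferase, had 282, 407 and 435 CPM light and 91.3, 79.5 and 78.6 CPM heavy (difference -2.14, SE 0.24, limma adjusted p 8.31e-05), was highest in fraction 2 at 1148 CPM, and had a difference of -2.38 with fraction 1 left out. Dnm2, the dynamin of membrane scission, was highest in fraction 3 at 66.9 CPM, with 44.9, 35.5 and 21.8 CPM light and 7.25, 3.05 and 1.5 CPM heavy (-2.95, and -3.04 without fraction 1). Eef2, the elongation factor of translocation, had 345, 339 and 348 CPM light and 106, 141 and 200 CPM heavy (-1.25, and -1.51 without fraction 1). The sides did not overlap in any of the 3 genes, all of them called. For the lists that follow, the shares over all genes tested were 13.6% heavy and 8.13% light. Initiation factors went both ways, with 11 of 51 called heavy and 5 light and a median of 0.02. Eif3a (4.41), Eif4g2 (2.94) and Eif4a2 (2.77) lay on the heavy side and Eif3g on the light side (-2.02, and -1.79 without fraction 1). Eif3a and Eif3g encode subunits of the same complex, eIF3. Elongation factors and other transcripts with a pyrimidine tract had 3 of 16 called heavy and 2 light (median -0.42). Proteasome genes had 2 of 36 on each side (median 0.00), zinc finger genes of the Zfp series 39 of 218 heavy and 8 light (0.19), solute carriers 22 of 201 and 10 (-0.01), and Rab GTPases 2 of 42 and 3 (-0.20).

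Sequence features of the transcripts differed between the called groups, as a description with no test. A CPE in the last 100 bases was found in 466 of 1476 heavy genes (31.6%), 79 of 726 light genes (10.9%) and 18.4% of the genes not called. Within ranges of coding length the shares also differed. Among coding regions of 601 to 1200 nucleotides the shares were 38.7% in heavy genes, 9.91% in light genes and 17.6% in genes not called. Over 4800 nucleotides they were 23.0%, 8.33% and 19.9%. At that length the heavy share was close to that of genes not called, and the light share rests on few genes. In the maturation-activated list 6 of 15 genes held one, Plat, Btg4, Cnot7, Orc6 and Bub1b, whose elements are printed above, among them. Ccnb1, Obox5 and Mad2l1 held none in the annotated window of the transcript used, which says nothing about other transcript ends. Median GC content was 45.3% in heavy, 53.6% in light and 50.8% in genes not called, and Spearman's rho of GC content with the difference was -0.379 across 10524 genes. A poly(A) signal in the last 100 bases was found in 86.6% of heavy, 78.4% of light and 81.0% of genes not called. The CPE as searched is made of A and T alone, so its shares were not separated from GC content. GC content can also affect amplification and was not corrected for, and its part in the results was not tested.

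The call in the gradient moved together with the change of the transcript between GV and MII transcriptomes. These are poly(A)-captured, so a change can be one of amount or of tail length. The median log2 change was 0.91 for heavy genes, -1.74 for light genes and -0.32 for genes not called. Of 1540 heavy genes 625 (40.6%) were higher in MII transcriptomes by at least 1 on the log2 scale and 20 lower. Of 920 light genes 15 were higher and 606 (65.9%) lower. Over all genes tested 11.2% were higher and 30.1% lower. Median CPM in MII transcriptomes was 107 for heavy and 4.58 for light genes. These are differences of group means, given without a test.

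Compared with GV oocytes, Plat, Tcl1, Obox1, Obox2, Obox5, Smc4 and Atrx stood further to the heavy side in MII. Obox7 was not called (1.67, limma adjusted p 0.0930). Further to the light side 20 of 79 oxidative phosphorylation genes were called, a count that rested on less. Of all 122 smaller differences in MII only 2 were called in each fit that left out 1 gradient letter. The fit over both stages tested the difference of the heavy-minus-light differences in 12445 genes, with 163 (1.31%) larger and 122 (0.98%) smaller in MII by limma. Smc4 had differences of 4.94, 5.31 and 6.37 in the 3 MII gradients and of 1.39, 1.18 and 0.61 in the GV gradients, so that MII exceeded GV by 4.48 (SE 0.43, limma adjusted p 0.000935). Ccar1, a regulator of apoptosis and transcription, had 6.09, 5.08 and 6.17 in MII and 0.02, 0.34 and 1.40 in GV (5.20, SE 0.45). Nexn exceeded GV by 4.38. Plat was on the light side in GV gradients, at -0.25, -0.17 and -0.71, and at 1.67, 2.86 and 2.41 in MII (2.69, SE 0.29, limma adjusted p 0.000937). Obox1 went from 0.78, 0.94 and 0.64 to 4.00, 4.54 and 3.76 (3.31), and Tcl1 from -0.06, -0.32 and 0.23 to 2.62, 2.93 and 1.82 (2.51). Sap30 of a histone deacetylase complex (3.67) and Upf3b of nonsense-mediated decay (3.69) were also called. Sap30 was not called without replicate B (3.26). Upf3b was called without none of the letters, at 2.94, 4.49 and 3.65 without A, B and C. All these genes were named because they were called, so separate MII and GV values add nothing to the test.

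Of the maturation-activated list 5 of 15 genes had a larger difference in MII than in GV and 0 a smaller one, Plat, Cnot7 (2.68), Orc6 (2.16), Ccnb1 (1.61) and Mos (1.31). Its median was 0.30 in GV. Btg4 exceeded GV by 0.92, under the size required. Of the M-phase list 6 of 38 were larger, Mad2l1 (2.94) and Pttg1 (1.65) among them. Of these named genes Plat alone was called without each of the 3 gradient letters. Without replicate B the others were not called, at 2.51 for Cnot7, 2.09 for Orc6, 1.3 for Ccnb1, 1 for Mos, 2.68 for Mad2l1 and 1.47 for Pttg1. Without replicate A neither were Cnot7 (2.48), Mos (1.32) and Pttg1 (1.33), and without replicate C neither were Cnot7 (3.04), Orc6 (1.93) and Ccnb1 (1.46). On the other side 20 of 79 oxidative phosphorylation genes and 6 of 80 cytosolic ribosomal protein genes had a smaller difference in MII. Ndufa3 had -5.34, -3.89 and -3.49 in MII and 0.72, 1.17 and -0.03 in GV (-4.86), and Elob differed by -2.96, Nufip1, a cofactor of snoRNP assembly, by -3.51, Ypel1 by -3.20 and Kbtbd11 by -3.03. GV fraction 1 held 0.0102 and 0.0231 M reads in 2 of its 3 gradients. With fraction 1 left out in both stages Ndufa3 (-1.20), Elob (-1.41) and Kbtbd11 (-1.48) were no longer called. The counts rested on single gradients: without replicate B 15 genes were larger and 2 smaller, without replicate C 50 and 21, and without replicate A 134 and 64. The 14 larger differences called in all 3 of these fits included Smc4, Ccar1, Nexn, Atrx, Plat, Tcl1, Obox1, Obox2 and Obox5. Of the 122 smaller differences 2 were called in all 3, Ndufa3 and 0610012G03Rik. Without the pairing of the sides by gradient, the replicate block, 95 were larger and 28 smaller.

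**Figure D5:**
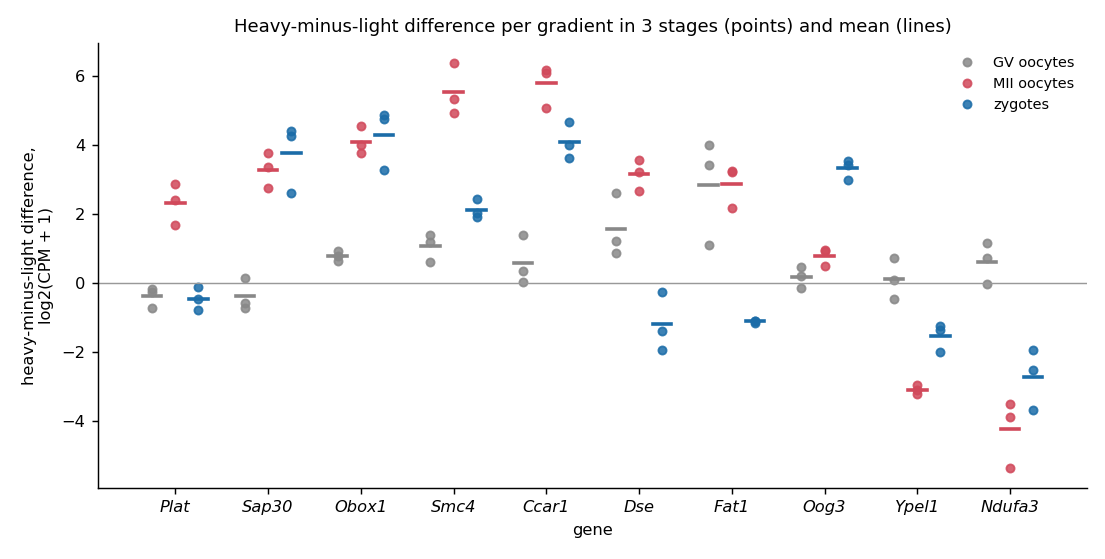
Heavy-minus-light difference on the log2(CPM + 1) scale for 10 genes in the 3 gradients of GV oocytes (grey), MII oocytes (red) and zygotes (blue), with lines at the means. Plat is high in MII alone, Obox1 and Sap30 in MII and zygotes, Oog3 in zygotes, and Dse and Fat1 are below 0 in zygotes.

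Compared with zygotes, Plat, Pttg1 and Fat1 stood further to the heavy side in MII and Oog3 less far. Of 12334 genes tested 26 (0.211%) had a larger and 13 (0.105%) a smaller heavy-minus-light difference in MII by limma, while 1465 had an unadjusted p under 0.05 and DESeq2 called 585. Plat went from 1.67, 2.86 and 2.41 in MII gradients to -0.11, -0.46 and -0.77 in zygotes (difference between stages 2.76, SE 0.33, limma adjusted p 0.00246). Pttg1 went from 3.02, 2.74 and 2.2 to 0.20, 0.45 and 0.20 (2.37). Fat1, a giant cadherin, was at 3.24, 2.18 and 3.20 in MII and -1.14, -1.10 and -1.08 in zygotes (3.98, SE 0.43), and Dse, an epimerase of dermatan sulfate, at 2.68, 3.55 and 3.21 and -1.40, -1.93 and -0.24 (4.34). Herc1, a giant ubiquitin ligase (4.33), Smc4 (3.42) and Cers2, a ceramide synthase (3.27), were the others with the largest differences. In the opposite direction Oog3, an oocyte-specific leucine-rich repeat protein, was at 0.48, 0.95 and 0.93 in MII and 2.98, 3.43 and 3.54 in zygotes (-2.53, SE 0.26, limma adjusted p 0.00148). Accsl followed with 0.13, 0.77 and 0.19 in MII and 2.76, 2.74 and 3.19 in zygotes (-2.53). Scaper (-2.65), Armc10 (-2.41) and Farsb (-2.32) were the other named genes with smaller differences in MII. Without replicate A no gene was called, beside 1122 at an unadjusted p under 0.05, without replicate B 2 were larger and 1 smaller, and without replicate C 6 and 3.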

How the data were processed

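The 30 MII fraction libraries were analysed with the MII, GV and zygote libraries named above. Per the submitters' processing notes, Trim Galore 0.6.7, FastQC, HISAT2 2.2.1, featureCounts 2.0.1, edgeR and the build GRCm39 were used, and the role and settings of each are not given in the sources used here. The authors deposited CPM per gene symbol, in 1 table of 15854 symbols and 272 libraries. Some columns of the deposited table sum past what a CPM column can hold because of repeated symbols, so they were treated as signal that the authors scaled in the same way. Of these, 159 symbols with values repeated in 76 groups were reduced to 1 each, which left 15771. The CPM steps gave whole reads for 100% of values in the gradients compared (tolerance 0.05 reads), and the recovered reads were used for the count tests only. Fractions 1 to 5 and 6 to 10 were averaged per gradient, and log2(mean CPM + 1) was fitted with limma 3.58.1 (R 4.3.3), gradient as a block, over genes with a side mean of at least 1 CPM in at least 3 side means. A call needed a Benjamini-Hochberg adjusted p under 0.05 and a difference of at least 1. MII was compared with GV and with zygotes by the interaction of stage and side, with only those 2 stages in the fit. Alternatives changed the block, pseudocount, filter, normalization, fractions and gradients, or used edgeR 4.0.16 or DESeq2 1.42.0. Leaving out fraction 10 and leaving out fraction 7 were chosen after seeing the data.

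The letters pair the sides because the fractions of 1 letter were read as 1 gradient. Deviations of the light and heavy sides from their group means correlated at 0.12, 0.193 and 0.127 within the MII gradients and at -0.109 to -0.0357 between different ones. Because deviations from a mean sum to 0 over the letters, the values between different letters are no separate support. Named genes were those with the 10 largest and 10 smallest differences, up to 5 leading members of each list (all members in lists of up to 20 genes), the leading interactions and the leading genes of each fraction. Rps27l, Mrpl3 and Ndufa4, the only heavy members of their lists, were named after their values were seen. The members and the lists were chosen with earlier results of these data known. Coding length, GC content and 3′ ends came from GENCODE M21 (GRCm38), 1 transcript per gene, matched by symbol or synonym, and coordinates of that build were used for sequences alone. The scripts were tested on simulated data.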

Additional observations from a re-analysis of the deposited data

Results flagged for a closer look

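The heavy-minus-light difference of 19 genes differed between MII and a neighbouring stage by the interaction test of limma, and these are the leading genes in each direction. Against GV oocytes the difference was larger in MII for Ccar1 by 5.20, Smc4 by 4.48, Nexn by 4.38, Upf3b by 3.69 and Sap30 by 3.67. It was smaller in MII for Ndufa3 (-4.86), Nufip1 (-3.51), Ypel1 (-3.20), Kbtbd11 (-3.03) and Elob (-2.96). Of these 10 genes, Ccar1, Smc4, Nexn and Ndufa3 were called in each fit that left out 1 gradient letter. With fraction 1 left out in both stages Ndufa3 (-1.2), Elob (-1.41) and Kbtbd11 (-1.48) were not called.

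Against zygotes the difference was larger in MII for Dse by 4.34, Herc1 by 4.33, Fat1 by 3.98, Smc4 by 3.42 and Cers2 by 3.27. It was smaller in MII for Scaper (-2.65), Accsl (-2.53), Oog3 (-2.53), Armc10 (-2.41) and Farsb (-2.32). None of these 10 was called in all 3 fits that left out 1 gradient letter.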

How the results depend on the processing

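Each setting changed 1 choice, and values are genes called by the same rule. For heavy and light MII calls (1540 and 920) the counts were 827 and 460 with no filter, 368 and 297 with all 8 stages in the fit, 1309 and 562 with edgeR, and 2017 and 1382 with fractions 8 to 10 against 1 to 3. Leaving out 1 gradient gave 1176 to 1449 heavy and 625 to 1015 light calls. Of the 1540 heavy calls 922 (59.9%) were made in all 3 of these fits, and of the 920 light calls 389 (42.3%). Without the replicate block the counts were 1433 and 771. The heavy share of calls ran from 54% with quantile normalization to 70% with edgeR, beside 62.6%. The median of all genes moved by -0.151 with the mean of log2 values and by -0.101 with DESeq2.

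Against GV (163 larger, 122 smaller) the counts were 95 and 28 without the replicate block, 35 and 19 with no filter, 73 and 39 with the mean of log2 values, 122 and 67 with edgeR, 498 and 483 with DESeq2, and 21 and 26 with all 8 stages. Leaving out 1 gradient letter gave 15 to 134 larger and 2 to 64 smaller. Against zygotes (26 and 13) they were 25 and 21 without the replicate block, 1 and 0 with no filter, 52 and 45 with a filter of 10 CPM, 17 and 2 with the mean of log2 values, 13 and 4 with edgeR, 282 and 303 with DESeq2, 15 and 7 without fraction 10, and 3 and 0 with all 8 stages. The smaller ones were 8 with fractions 7 to 10 against 1 to 4 and 25 without fraction 1. Leaving out 1 letter gave 0 to 6 larger and 0 to 3 smaller. The causes were not tested.

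Without fraction 1 the direction reversed for Rn7s1 (1.43), Rn7s2 (1.5), Rn7sk (1.28), Terf2ip (0.16), Atp5e (0.41) and H4c3 (0.40), and with the mean of log2 values for Rn7sk (0.14). Of 90 called named genes 39 were called under every alternative. Depth limits fraction 1 most, above all in GV.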
